A study of Mus musculus with 9 samples.

Results

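Axons and migrating cells are steered by a small number of ligand and receptor families, and these were measured here in mouse gliomas and in normal brain cells. The set holds the semaphorins with their plexin and neuropilin receptors, the ephrins with the Eph receptors, the Slits with the Robos, and the netrins with the Unc5 receptors. Members were chosen by gene symbol alone, by matching the probe names in the array files to these family names. The match gave 68 genes, 35 ligands and 33 receptors, on 96 of the 55666 probes kept from each array. Of the 68 genes, 64 were bright enough to be tested among the cells and 66 between tissue and cells. Ntn5 and Unc5d were tested in neither fit, and Epha6 and Epha10 only in the fit that held the tissue.

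Semaphorins, Slits, ephrins and netrins act on the growth cone, the moving tip of an axon, and can attract or repel it according to the receptors it carries. Secreted semaphorins bind neuropilins, which signal through plexins, while most other semaphorins bind plexins directly. Ephrins are held on the cell surface and signal through Eph receptors at contact between cells, and Slits repel cells that carry Robos. The same families pattern blood vessels and guide the migration of glial and neural precursor cells.

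RNA was measured on 9 single-colour Agilent arrays in 4 groups. Brain tumour tissue with EZH2 knocked out, from the mouse background called Mosaic Analysis with Double Markers (MADM), was measured on 3 arrays, and glioma cells of the MADM background on 2. Neural stem cells and astrocytes of normal wild-type C57BL/6J brain were measured on 2 arrays each. MADM is a method in which recombination between paired chromosomes makes rare marked mutant cells. The labels give no driver mutation, age or Cre line for either glioma group, and no Ezh2 genotype for the glioma cells. They do not say whether the samples of a group came from separate animals or cultures, so the p-values rest on the spread over these arrays, part of which may be technical.

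Levels are log2 signal minus the 75th percentile of the array, so a level of 0 is the signal of that percentile, and each difference is the first group named minus the second. A gene was called changed when limma's test gave a Benjamini-Hochberg adjusted p under 0.05 over all genes tested and the change was at least 2-fold. Between 60.1% and 65.7% of spots on an array were well above background, and the number of arrays limits the precision. All 6 cell arrays lay on 1 slide and the 3 tissue arrays on another, read with another software version, so slide and software cannot be told apart from the difference between tissue and cells. Ezh2, the histone methyltransferase of Polycomb complex PRC2 and the gene targeted in the tissue, had levels of 1.91, 1.62 and 1.48 on the tissue arrays, against 3.03 and 3.24 on the glioma cell arrays. Its difference of -1.46 (SE 0.42, limma adjusted p = 0.0503) did not pass, its probe's place relative to the deleted part is not given, and tumour tissue holds cells of other kinds. Bulk arrays cannot tell fewer cells of a type from less RNA per cell.

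The arrays were set against markers of the cell types they are labelled with. All 7 astrocyte markers were well above background on both astrocyte arrays, and all 7 neural stem cell markers on both neural stem cell arrays. Detection alone did not set the groups apart. All 7 neural stem cell markers were also detected on the astrocyte and tissue arrays, and all 7 astrocyte markers on the tissue arrays and neural stem cell array 1. Mean astrocyte marker levels were 3.78 and 0.58 on the neural stem cell arrays, and mean neural stem cell marker levels 1.7 and 4.48 on the glioma cell arrays. The astrocyte arrays also carried all 7 markers of microglia and macrophages, with mean levels of 4.46 and 4.67. Their mean level of fibroblast markers was 0.68 on array 1 and 5.76 on array 2, so the pair of astrocyte arrays differed in that respect. All 8 markers of oligodendrocyte precursors were well above background on each tissue, glioma cell and neural stem cell array, and 7 of 8 on the astrocyte arrays, where Gpr17 was not. Their levels differed more than these counts. The mean ran from 5.1 to 5.9 in tissue, 5.4 to 5.7 in glioma cells and 4.2 to 5.1 in neural stem cells, against -0.74 to -0.07 in astrocytes.

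**Figure D1:**
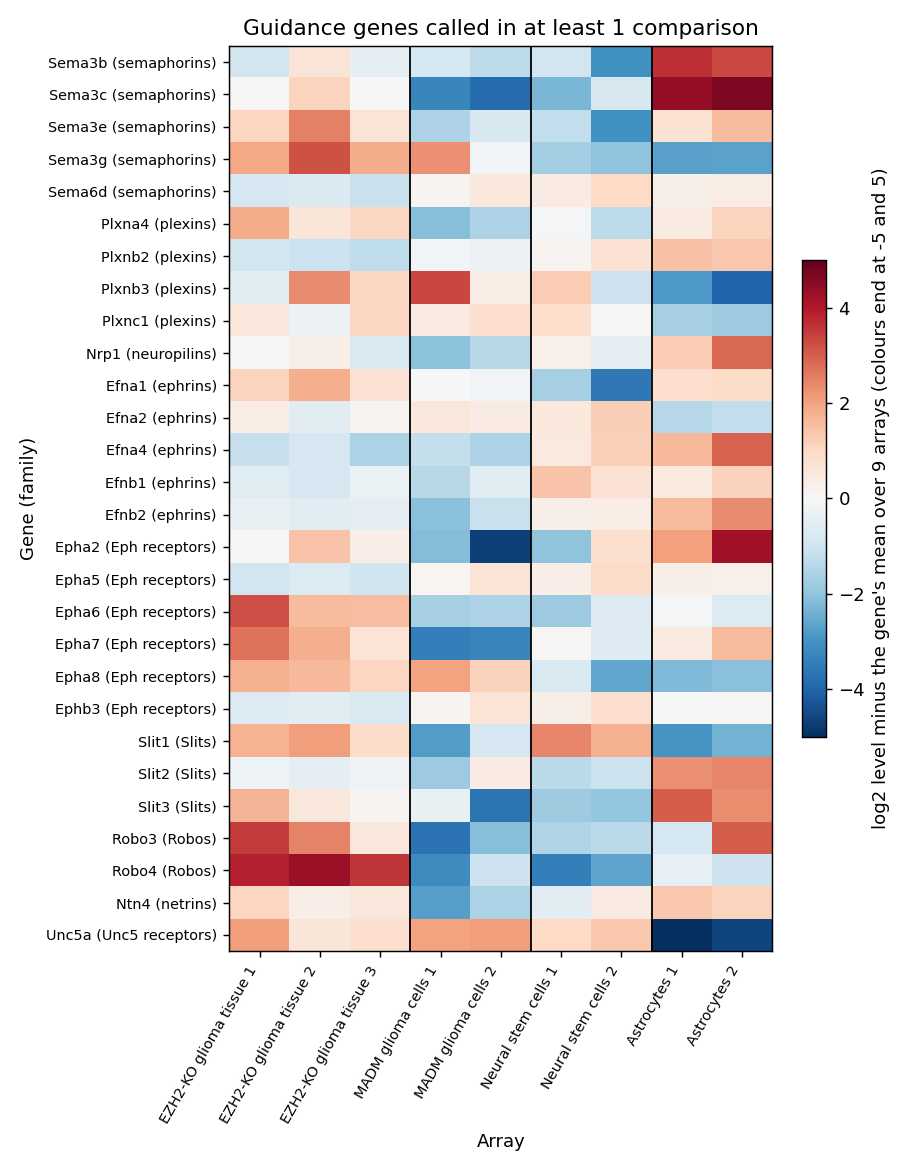
Levels of the guidance genes called in at least 1 comparison, by array (columns, 3 tissue, 2 glioma cell, 2 neural stem cell and 2 astrocyte arrays, split by black lines). Colour is the log2 level minus the gene's mean over the 9 arrays, and colours end at -5 and 5. Unc5a is low on both astrocyte arrays and on no other, while Sema3b and Sema3c are high on both.

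Glioma cells were first set against astrocytes. Unc5a, a netrin receptor that mediates repulsion, was 131-fold higher in glioma cells, and Sema3c, a secreted semaphorin, was 269-fold lower. Of 64 genes tested, 19 were called, 6 higher and 13 lower. That is 29.7% of the members, beside 18.8% of all genes tested, with 9% of all genes called higher and 9.84% lower. The arrays of glioma cells and astrocytes did not overlap for 45 members (70.3%), beside 69.2% of all genes. The median difference of the members was -0.55 and that of all genes 0.15. Ligands and receptors were called at similar rates, 10 of 34 and 9 of 30.

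Unc5a had levels of 3.34 and 3.40 in glioma cells, against -4.04 and -3.29 in astrocytes. The groups were far apart, and the glioma cell arrays lay within 0.06 of each other. The difference was 7.03 (SE 0.36, limma adjusted p = 0.00232), and the call held in all 6 fits that omitted 1 array. The probe lies at chr13:55107318-55107377 on the plus strand of mm9. The other Unc5 receptors tested had positive differences that did not pass, such as 1.88 for Unc5c (adjusted p = 0.189). Among netrins, the ligands of these receptors, Ntn4 had levels of -5.54 and -4.34 in glioma cells, where it was well above background on 1 of 2 arrays, against -1.43 and -1.67 in astrocytes. Ntn4 fell by 3.39 on the log2 scale (SE 0.54, limma adjusted p = 0.0161).

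Sema3c had levels of -4.80 and -5.37 in glioma cells, against 2.84 and 3.13 in astrocytes, a difference of -8.07 (SE 0.55, limma adjusted p = 0.00278). It was well above background on 1 of 2 glioma cell arrays, and its call held with each array left out. A weaker probe of the gene, not well above background in glioma cells, was at least 29.2-fold lower there. Sema3b, another secreted semaphorin, had levels of -1.12 and -1.52 in glioma cells, against 3.44 and 3.06 in astrocytes. It fell by 4.57 on the log2 scale (SE 0.71, limma adjusted p = 0.0147). In the opposite direction, Sema3g had levels of -1.27 and -3.66 in glioma cells, against -6.24 and -6.20 in astrocytes, where it was not well above background. It was at least 8.68-fold higher in glioma cells (limma adjusted p = 0.0319). Only these 3 of 20 semaphorins were called, and the family's median difference was 0.25.

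The promoters of Unc5a and Sema3c are shown because they are the members whose calls held with each cell array left out both here and between neural stem cells and astrocytes, comparisons that share the astrocyte arrays. The sequences are the 250 bases before each gene's start in RefSeq (GRCm38.p6), 5′ to 3′ on the gene's strand. Unc5a's lie at chr13:54949161-54949410 and Sema3c's at chr5:17574566-17574815, both on the plus strand. Capitals mark matches to the GC box GGGCGG, on either strand.
Unc5a: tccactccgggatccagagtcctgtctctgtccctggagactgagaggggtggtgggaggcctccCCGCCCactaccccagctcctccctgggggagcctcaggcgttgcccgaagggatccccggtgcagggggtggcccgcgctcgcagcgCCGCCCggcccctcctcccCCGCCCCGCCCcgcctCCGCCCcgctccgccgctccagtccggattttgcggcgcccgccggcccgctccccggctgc
Sema3c: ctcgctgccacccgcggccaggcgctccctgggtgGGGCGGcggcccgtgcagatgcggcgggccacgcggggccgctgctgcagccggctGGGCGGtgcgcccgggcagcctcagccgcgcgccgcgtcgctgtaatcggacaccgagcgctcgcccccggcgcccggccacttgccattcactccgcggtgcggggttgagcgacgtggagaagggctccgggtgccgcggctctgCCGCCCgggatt
The window of Unc5a holds 5 GC boxes, some overlapping, and that of Sema3c holds 3. Neither holds the SOX core ACAANG on either strand, so the genes that moved in opposite directions do not differ in whether either motif is present. CpG dinucleotides number 25 in the window of Unc5a and 39 in that of Sema3c. A GC box is present in 32.74% of the 32851 RefSeq promoters of this length and in 70.67% of the 75 promoters listed for 59 of the guidance genes. The SOX core is present in 36.32% of all of them and in 25.33% of those of the guidance genes.

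Plexins moved both ways. Plxnc1, a semaphorin receptor, had levels of 1.21 and 1.61 in glioma cells, against -0.87 and -1.05 in astrocytes, and rose by 2.37 on the log2 scale (SE 0.38, limma adjusted p = 0.0161). Plxnb3, a receptor of Sema5a, had 4.77 and 1.80 in glioma cells, against -1.46 and -2.55 in astrocytes. Its groups did not overlap, but its glioma cell arrays lay 2.97 apart, and its difference of 5.29 had an SE of 1.23 (limma adjusted p = 0.0416). Plxna4, a co-receptor of secreted semaphorins, and Plxnb2, a receptor of transmembrane semaphorins, fell by 2.62 and 1.62 on the log2 scale. Nrp1, the neuropilin that also binds VEGF, had levels of -4.63 and -3.98 in glioma cells, against -1.32 and 0.27 in astrocytes. It fell by 3.78 on the log2 scale (SE 0.62, limma adjusted p = 0.0176). The difference of Nrp2 was -1.94 and did not pass (adjusted p = 0.314).

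Ephrins were called in 4 of 8 cases, 3 of them lower in glioma cells. Efnb2, a transmembrane ephrin that can also signal into the cell that carries it, had levels of -1.74 and -0.79 in glioma cells, against 1.92 and 2.69 in astrocytes. It fell by 3.57 on the log2 scale (SE 0.45, limma adjusted p = 0.00884), and the call held with each array left out. Its second probe, not well above background in glioma cells, was at least 2.97-fold lower there. Efna4, which is anchored to the membrane by a lipid, had levels of -2.87 and -3.20 in glioma cells, against -0.04 and 1.27 in astrocytes, a difference of -3.65 (SE 0.53, limma adjusted p = 0.0124). Efnb1 fell by 1.81 on the log2 scale. Efna2 was the ephrin that rose, with levels of -0.05 and -0.21 in glioma cells, against -2.07 and -1.87 in astrocytes (difference 1.84, SE 0.34, limma adjusted p = 0.0228).

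Of the 12 Eph receptors tested, 3 were called. Epha8 had levels of -1.34 and -2.17 in glioma cells, against -5.55 and -5.41 in astrocytes, where it was not well above background. It was at least 13.2-fold higher in glioma cells (limma adjusted p = 0.0219). Among the cells, only the glioma cells had Epha8 well above background on every array, so it entered the test through them. The filter thus fixed its direction, and its place among the genes called higher is no independent result. Epha7 went the other way, with -6.51 and -7.13 in glioma cells, not well above background, against -3.90 and -1.19 in astrocytes, and was at least 6.92-fold lower (limma adjusted p = 0.0343). Epha2 had -4.41 and -6.90 in glioma cells, well above background on 1 of 2 arrays, against -0.21 and 1.97 in astrocytes. Both pairs of replicates were more than 2 log2 units apart, and the difference of -6.53 had an SE of 1.36 (limma adjusted p = 0.0315).

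Slit2 and Slit3, repellents that bind Robos, were lower in glioma cells. Slit3 had levels of -3.40 and -6.69 in glioma cells, well above background on 1 of 2 arrays, against 0.01 and -0.72 in astrocytes. Its difference was -4.69 (SE 1.07, limma adjusted p = 0.0394). Among the cells Slit3 entered the test through astrocytes only, so its place among the genes called lower is no independent result. Slit2 fell by 3.06 on the log2 scale, and Slit1 had a difference of 0.84 that did not pass (adjusted p = 0.428). No Robo was called. All 4 Robos had negative differences, and the smallest p was that of Robo3, a Robo known for commissural axons. It was not well above background on either glioma cell array, so its fold is a bound. It was at least 5.75-fold lower in glioma cells (limma adjusted p = 0.0891) and did not pass. Among the cells Robo3 and Robo4 also entered the test through astrocytes only.

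**Figure D2:**
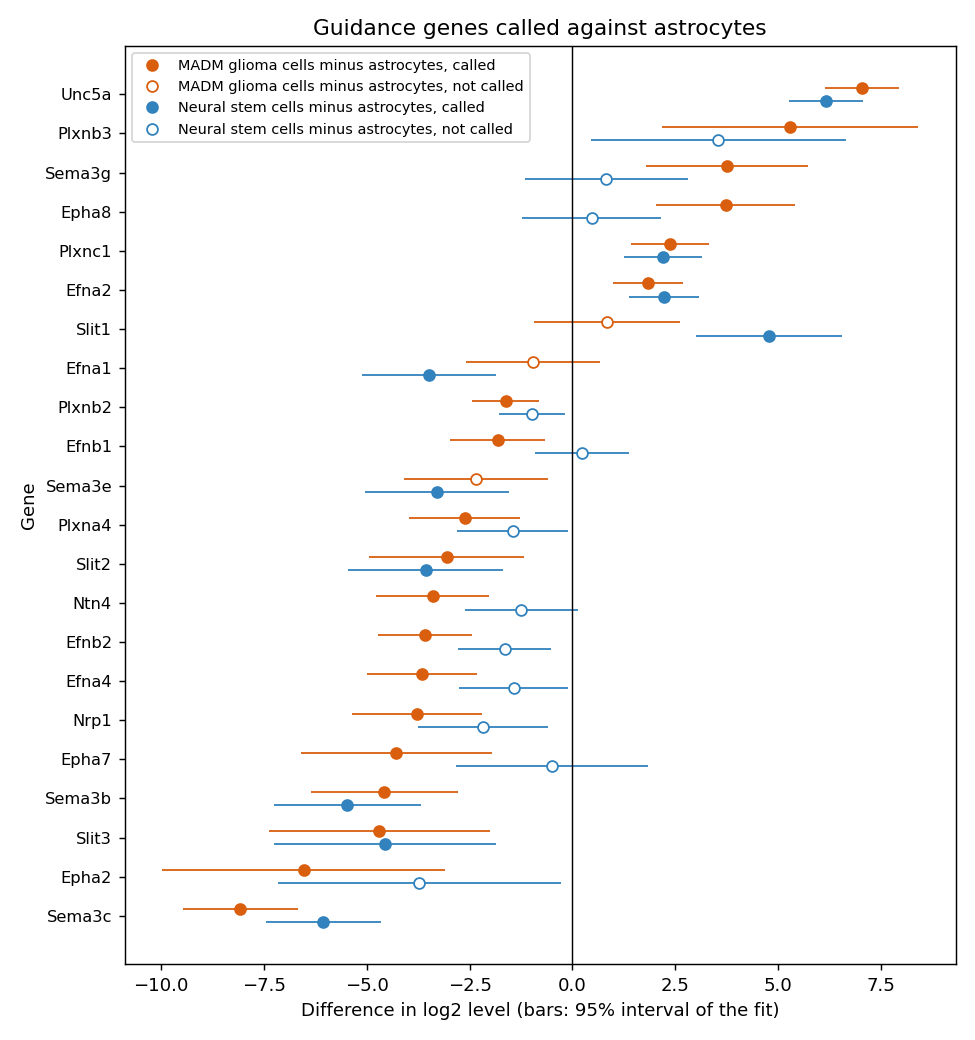
Differences in log2 level from astrocytes for the guidance genes called in either comparison, in glioma cells (orange) and neural stem cells (blue). Points are fitted differences, bars their 95% intervals, and filled points are called. Both comparisons use the same 2 astrocyte arrays. Sema3g and Epha8 were not well above background in astrocytes, nor Epha7 in glioma cells, and their folds in glioma cells are bounds in the text. Unc5a is highest and Sema3c lowest in glioma cells.

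With 1 of the 6 arrays left out, the differences of all 19 called genes kept their sign, and those of 13 stayed within 1 log2 unit of the value with all arrays. That of Efna2 ran from 1.74 to 1.94, and that of Sema3b from -4.77 to -4.37. The widest were those of Slit3, which was -6.34 without glioma cell array 1 and -3.05 without array 2, and of Plxnb3, which was 3.80 without glioma cell array 1 and 6.77 without array 2. Epha7 ran from -5.63 to -2.93, Epha2 from -7.78 to -5.29, Sema3g from 2.56 to 4.95 and Slit2 from -4.18 to -1.94. These fits have fewer residual degrees of freedom, and between 1993 and 4891 of all genes were called in them, beside 4687 with all arrays. Besides Unc5a, Sema3c and Efnb2, each of the other 16 lost its call in at least 1 of the 6 fits. Efna4 lost it without glioma cell array 2 (limma adjusted p = 0.0572), and Nrp1 without either glioma cell array (up to 0.0717). Plxnc1, Efna2, Epha8, Sema3b, Plxna4 and Plxnb2 lost it without any 1 of the glioma cell or astrocyte arrays (up to 0.122). Ntn4 lost it without glioma cell array 1 or either astrocyte array, and Epha2 without glioma cell array 2 or either astrocyte array (up to 0.0762 and 0.122). Sema3g and Slit3 lost it without any 1 of the astrocyte or neural stem cell arrays (up to 0.121 and 0.151). Plxnb3 and Slit2 lost it without these or glioma cell array 1 (up to 0.153), and Epha7 in all but the fit without astrocyte array 1 (up to 0.129). Efnb1 lost it in all 6 fits (up to 0.177). Between 5 and 16 members were called with 1 array left out. The fewest were called without astrocyte array 2, the array whose omission also left the fewest calls over all genes.

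Other cell types differed between these groups too. All 7 microglia and macrophage markers were well above background on both astrocyte arrays, with summed levels of 171 and 196 times the array's 75th percentile. In glioma cells 3 of 7 were, with sums of 20.8 to 32.1, and Aif1, Cx3cr1, Ctss and C1qa were not well above background. Fibroblast markers summed to between 0.38 and 1.47 in glioma cells, against 49.6 to 512 in astrocytes. The part of either in the differences above was not tested.

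Glioma cells were next set against neural stem cells, and no member was called. Of 64 members, 18 had an unadjusted p under 0.05 in limma's test, as had 3615 of all 24868 genes tested. Calls were few over all genes, 0.977% (0.659% higher and 0.318% lower). The arrays did not overlap for 34 members (53.1%), beside 46% of all genes. The members' median difference was -0.35, beside -0.05 for all genes, and 42 of 64 were negative. The 3 members with the smallest p were Slit1, Epha8 and Efnb1. Slit1 had levels of -3.92 and -1.99 in glioma cells, against 1.32 and 0.63 in neural stem cells, with no overlap and a difference of -3.93 (SE 0.70, limma adjusted p = 0.0880). Epha8 had -1.34 and -2.17 in glioma cells, against -4.10 and -5.93 in neural stem cells, a difference of 3.26 (SE 0.67, limma adjusted p = 0.115). Among the cells Epha8 entered the test through glioma cells only, as did Sema3g. Efnb1 had 0.98 and 1.77 in glioma cells, against 3.77 and 3.07 in neural stem cells, a difference of -2.04 (SE 0.45, limma adjusted p = 0.131). In a fit of all 9 arrays Slit1 and Epha8 passed (adjusted p = 0.0383 and 0.0447), and without glioma cell array 2 Sema3g passed with a difference of 4.13 (adjusted p = 0.0447).

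The differences of Unc5a and Plxnc1, both called against astrocytes, were small between glioma cells and neural stem cells. That of Unc5a was 0.88 ± 0.90 (95% interval) and that of Plxnc1 0.18 ± 0.96. The interval of Sema3c, -2.02 ± 1.40, did not hold 0, although its adjusted p was 0.190. Epha5 had a difference of -0.23 by its brightest probe, but -4.89 and -6.47 by its weaker probes. Those were not well above background on glioma cell array 1, and the mean of the tested probes gave no call. A missed threshold with 2 arrays a group does not show that levels were equal.

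Neural stem cells were also set against astrocytes. Of 64 members, 10 were called, 4 higher and 6 lower, which is 15.6% beside 14.6% of all genes tested (6.74% higher and 7.85% lower). The share among members was close to that among all genes. For 37 members (57.8%) the arrays did not overlap, beside 66.3% of all genes. Ligands made up 8 of the 10, of 34 tested, and receptors 2 of 30. The receptors were Unc5a, with levels of 2.32 and 2.66 in neural stem cells, against -4.04 and -3.29 in astrocytes (difference 6.15, SE 0.36, limma adjusted p = 0.00414), and Plxnc1, with 1.64 and 0.83, against -0.87 and -1.05 (difference 2.20, SE 0.38, adjusted p = 0.0238).

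All 3 Slits were called, but not in 1 direction. Slit1, the Slit found mainly in the nervous system, had levels of 1.32 and 0.63 in neural stem cells, against -4.09 and -3.49 in astrocytes, and was 27.3-fold higher (limma adjusted p = 0.0163). Slit2 had -2.04 and -1.75 in neural stem cells, against 1.58 and 1.77 in astrocytes, and was 11.9-fold lower (limma adjusted p = 0.0368). Slit3 had -4.83 and -4.98 in neural stem cells, well above background on 1 of 2 arrays, against 0.01 and -0.72 in astrocytes. It was 23.4-fold lower (limma adjusted p = 0.0488). Slit3 entered the test through astrocytes only, so this fall is no independent result either. For each Slit, both arrays of 1 group lay above both of the other. Of the Robos, none was called. Robo4 had the smallest p. It was not well above background in neural stem cells, and was at least 2.74-fold lower there (limma adjusted p = 0.0988), which did not pass.

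The secreted semaphorins Sema3c, Sema3b and Sema3e fell in neural stem cells. Sema3c had levels of -3.81 and -2.33 in neural stem cells, against 2.84 and 3.13 in astrocytes (difference -6.06, SE 0.55, limma adjusted p = 0.00631). Sema3b had -1.18 and -3.26, against 3.44 and 3.06 (difference -5.47, SE 0.71, adjusted p = 0.0119). Sema3e, a ligand of Plxnd1, had -4.39 and -6.18 in neural stem cells, well above background on 1 of 2 arrays, against -2.40 and -1.57 in astrocytes (difference -3.30, SE 0.69, limma adjusted p = 0.0376). Of the ephrins, Efna2 rose and Efna1 fell. Efna2 had -0.08 and 0.60 in neural stem cells, against -2.07 and -1.87 in astrocytes (difference 2.23, SE 0.34, limma adjusted p = 0.0171). Efna1 had -2.30 and -4.24, against 0.17 and 0.27 (difference -3.49, SE 0.65, adjusted p = 0.0282). No Eph receptor, netrin or neuropilin passed, and among them Nrp1 had a difference of -2.17 (limma adjusted p = 0.0751) and Epha2 one of -3.72 (adjusted p = 0.120). For Epha5 the result depended on the probe. Its brightest probe had a difference of 0.34, but its weaker probes had 3.51 and 4.30. They were well above background on all arrays of both groups, without overlap. With the mean of its tested probes Epha5 was not called either.

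The differences of all 10 called genes kept their sign in the 6 fits that omitted 1 array, and 9 stayed within 1 log2 unit. The exception was Sema3b, from -6.51 to -4.43. The calls of Unc5a and Sema3c held in all 6 fits. Sema3b lost its call without either astrocyte array (limma adjusted p up to 0.0584), Efna2 without these or neural stem cell array 2 and Plxnc1 without these or neural stem cell array 1 (up to 0.103). The 3 Slits lost theirs without any 1 of the astrocyte or neural stem cell arrays (up to 0.172). Efna1 lost its call without any 1 of the astrocyte or glioma cell arrays (0.112), and Sema3e without these or neural stem cell array 2 (0.146). Between 2 and 10 members were called with 1 array left out, beside 1199 to 2659 of all genes in these fits and 3628 with all arrays. The 2 were called without astrocyte array 2, where 1265 of all genes were. Summed microglia and macrophage markers ran from 27.0 to 40.4 times the 75th percentile in neural stem cells, with all 7 well above background, against 171 to 196 in astrocytes. Fibroblast markers summed to between 4.80 and 7.54, against 49.6 to 512. Their part in these differences was not tested.

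**Figure D3:**
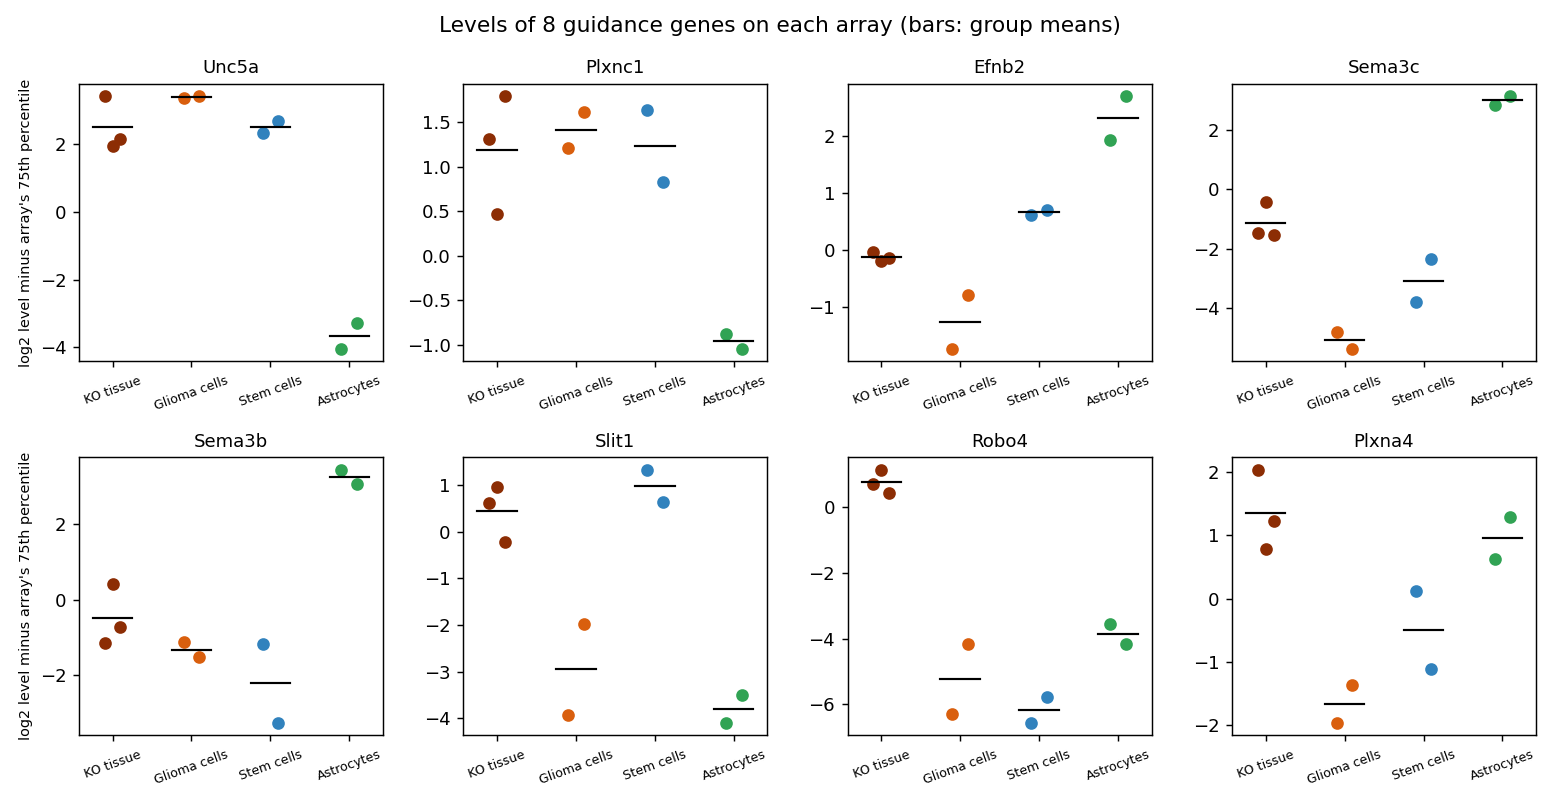
log2 levels of 8 guidance genes relative to each array's 75th percentile, with 1 point per array and bars for group means. Panels have their own scales and should not be compared in height. Unc5a and Plxnc1 are low on the 2 astrocyte arrays, Sema3c and Sema3b are high there, and Robo4 lies above 0 on the 3 tissue arrays only.

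Tumour tissue with EZH2 knocked out was last set against glioma cells. Robo4, a Robo of vascular endothelium, was 63.4-fold higher in tissue. Of 66 members tested, 13 were called, 10 higher and 3 lower, which is 19.7% beside 16.9% of all genes tested (7.82% higher and 9.11% lower). When only probes well above background on every array were tested, 49 members were left, with 2 called higher and 3 lower. The members' median difference was 0.57, beside -0.16 for all genes, and 45 of 66 were positive. The arrays did not overlap for 35 members (53.0%), beside 55.2% of all genes.

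Robo4 had levels of 0.72, 1.14 and 0.43 in tissue, against -6.29 and -4.16 in glioma cells, where it was well above background on 1 of 2 arrays. The difference was 5.99 (SE 0.62, limma adjusted p = 0.00127). Robo3 had -0.40, -1.40 and -3.32 in tissue, against -7.56 and -6.03 in glioma cells, where it was not well above background. It was at least 12.4-fold higher in tissue (limma adjusted p = 0.0297). A weaker probe of Robo3, among these arrays well above background on tissue array 1 only, overlapped between the groups, with a difference of 0.85. The probes tested for Robo3 and Robo4 lie close together on chromosome 9. That of Robo3 lies at chr9:37224357-37224416 on the minus strand of mm9, and that of Robo4 at chr9:37221547-37221606 on the plus strand. Robo2 had a difference of 3.40 that did not pass (adjusted p = 0.0886). Of the Slits, Slit1 was called, with 0.62, 0.95 and -0.22 in tissue, against -3.92 and -1.99 in glioma cells (difference 3.40, SE 0.61, limma adjusted p = 0.0108).

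Sema3c had levels of -1.48, -0.44 and -1.55 in tissue, against -4.80 and -5.37 in glioma cells (difference 3.93, SE 0.52, limma adjusted p = 0.00327). Sema3e had -2.06, -0.63 and -2.50, against -4.70 and -3.97 (difference 2.60, SE 0.71, adjusted p = 0.0429). Both secreted semaphorins stood above every glioma cell array on each tissue array. Plxna4 had 2.03, 0.79 and 1.23 in tissue, against -1.96 and -1.36 in glioma cells (difference 3.01, SE 0.51, limma adjusted p = 0.00857). Ntn4, a netrin of basement membranes, had -1.70, -2.43 and -2.21 in tissue, against -5.54 and -4.34 in glioma cells (difference 2.83, SE 0.46, limma adjusted p = 0.00723). Unc5a, far from astrocytes in both cell groups, had 3.40, 1.93 and 2.15 in tissue, against 3.34 and 3.40 in glioma cells, a difference of -0.87 that did not pass (adjusted p = 0.229).

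Among Eph receptors, Epha7, Epha6 and Epha2 were higher in tissue. Epha7 had levels of -1.01, -1.91 and -3.05 in tissue, against -7.16 and -6.99 in glioma cells, where it was not well above background. It was at least 10.2-fold higher (limma adjusted p = 0.00240) by the brightest probe of this fit, which is not the probe used among the cells, and the other 2 probes, also not well above background in glioma cells, were at least 4.66-fold and 6.69-fold higher. Epha6 had -2.42, -4.08 and -4.11 in tissue, against -7.31 and -7.20, not well above background, in glioma cells, and was at least 3.48-fold higher (limma adjusted p = 0.00674). Epha6 was well above background on the tissue arrays only and entered the test through them. The filter thus fixed its direction, and its place among the genes called higher is no independent result. Epha2 had -2.25, -0.83 and -1.92 in tissue, against -4.41 and -6.90 in glioma cells (difference 3.99, SE 1.099, limma adjusted p = 0.0446). No ephrin passed, and the smallest p was that of Efnb3 (difference 2.15, adjusted p = 0.0563). No neuropilin passed either, with a difference of 1.55 for Nrp1 (adjusted p = 0.0912).

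**Figure D4:**
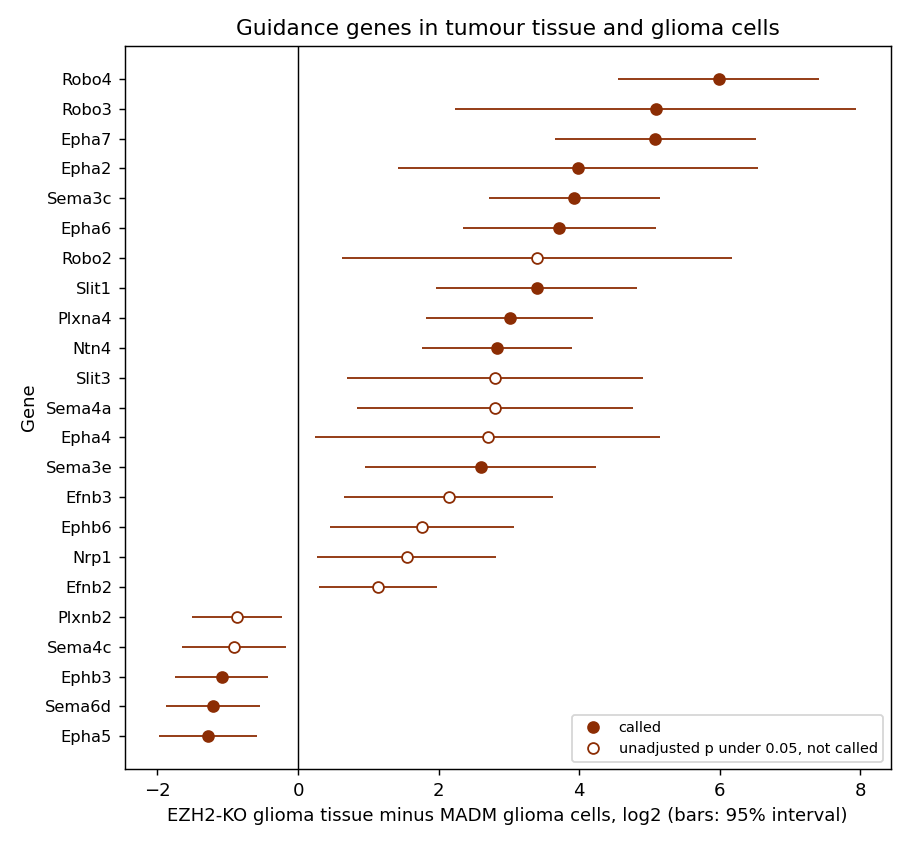
Differences in log2 level between EZH2-KO tissue and MADM glioma cells for the guidance genes with an unadjusted p under 0.05. Points are fitted differences, bars their 95% intervals, and filled points are called. Robo3, Epha7 and Epha6 were not well above background in glioma cells and are bounds in the text. Robo4 is highest at 5.99 and Epha5 lowest at -1.28.

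The 3 genes that fell in tissue were the receptors Epha5 and Ephb3 and the transmembrane semaphorin Sema6d, and these falls were small. Epha5 had levels of 2.93, 3.19 and 2.90 in tissue, against 3.99 and 4.57 in glioma cells (difference -1.28, SE 0.30, limma adjusted p = 0.0271). Sema6d had 0.91, 1.03 and 0.62, against 1.87 and 2.25 (difference -1.21, SE 0.29, adjusted p = 0.0282). Ephb3 had 4.32, 4.45 and 4.27, against 5.16 and 5.71 (difference -1.09, SE 0.28, adjusted p = 0.0375).

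Other probes of Epha5 and Sema6d did not follow these falls. A weaker probe of Epha5 had 0.44, -0.77 and 0.42 in tissue, against -7.34, not well above background, and -0.73 in glioma cells. Its other weaker probe had -0.11, -1.04 and -0.54 in tissue, against -6.02, not well above background, and -2.54 in glioma cells. That is a difference of 3.72 without overlap. The weaker probe of Sema6d had -1.83, -1.37 and -1.91 in tissue, against -3.59 and -3.39 in glioma cells, a difference of 1.79. With the mean of the tested probes in place of the brightest, the differences were 2.17 for Epha5 and 0.29 for Sema6d, and neither passed (limma adjusted p = 0.131 and 0.550). With no scaling between arrays no member was called lower, and Epha5, Sema6d and Ephb3 had differences of -0.74, -0.67 and -0.55. Without scaling 16 members were called higher.

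**Figure D5:**
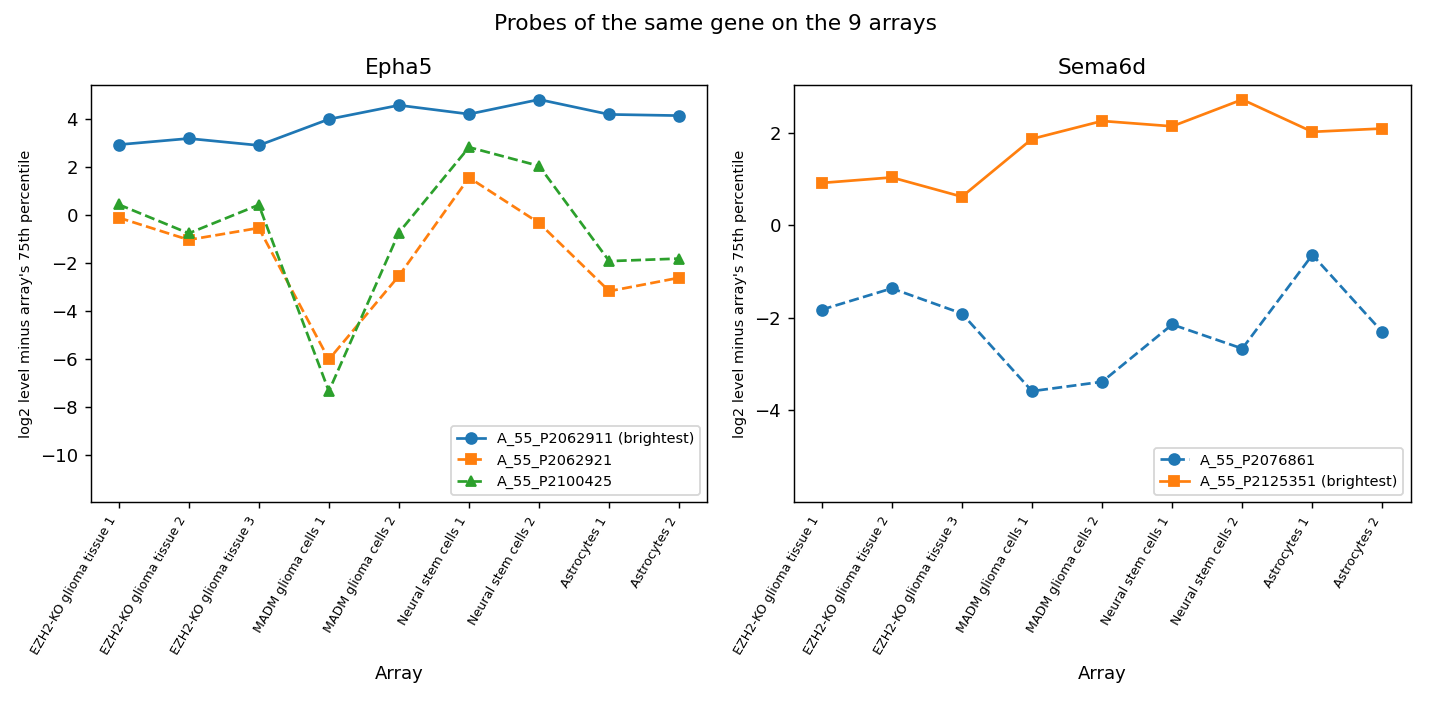
log2 levels of each probe of Epha5 and Sema6d on the 9 arrays, relative to each array's 75th percentile. The solid line is the brightest probe, which represents the gene, and dashed lines are the others. The brightest probes are lower on the 3 tissue arrays than on the 2 glioma cell arrays, and the weaker Sema6d probe is higher.

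Robo4, Sema3c, Epha6, Epha7 and Ntn4 kept their calls in all 9 fits that omitted 1 array. Slit1 and Plxna4 lost theirs without glioma cell array 1 (limma adjusted p = 0.0525 and 0.0612). Robo3 lost its call without tissue array 1 or 2 or either glioma cell array (up to 0.157). Epha2, Epha5 and Sema6d lost theirs without any 1 of the tissue or glioma cell arrays (up to 0.221), and Sema3e and Ephb3 also without either astrocyte array (up to 0.204). Between 6 and 17 members were called with 1 array left out, beside 1717 to 4675 of all genes in these fits and 4299 with all arrays. All 13 differences kept their sign, and 11 stayed within 1 log2 unit, while that of Robo4 ran from 4.92 to 7.05 and that of Epha2 from 2.75 to 5.23.

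Markers of several other cell types were higher on the tissue arrays. All 7 endothelial and pericyte markers were well above background there, with summed levels of 9.95 to 17.3 times the 75th percentile. In glioma cells 2 of 7 were, with sums of 6.69 to 7.59, and Cdh5, Cldn5, Tek, Pdgfrb and Rgs5 were not well above background. All 8 neuron markers were well above background in tissue and 6 of 8 in glioma cells, with sums of 65.2 to 146, against 29.0 to 33.5. Microglia and macrophage markers summed to between 141 and 299 in tissue, against 20.8 to 32.1 in glioma cells. Their part in the rise of Robo4 and of the other genes was not tested.

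Of the 66 members tested in either fit, 28 (42.4%) were called in at least 1 comparison, beside 32.8% of all 25398 genes tested, and 38 in none. By family, the genes called at least once were all 3 Slits, 5 of 8 ephrins, 4 of 9 plexins, 6 of 14 Eph receptors and 5 of 20 semaphorins, and a difference between families was not tested. The genes named next were chosen after their values were seen, either for lying nearest to the threshold or for differing little. Ephb4, a receptor of Efnb2, had levels of -0.58 and -2.70 in glioma cells, against 0.90 and 1.59 in astrocytes, with no overlap (difference -2.89, SE 0.76, limma adjusted p = 0.0551). Sema4a, a transmembrane semaphorin, had 2.67, 1.59 and 0.77 in tissue, against -0.99 and -1.27 in glioma cells, again with no overlap (difference 2.80, SE 0.85, limma adjusted p = 0.0585). Between neural stem cells and astrocytes 2 semaphorins lay nearest. Sema6c, a transmembrane one, had 1.502 and 0.987 in neural stem cells, against -0.67 and -0.84 in astrocytes (difference 2.00, SE 0.53, limma adjusted p = 0.0632). Sema3f, a secreted ligand of Nrp2, had 0.59 and -1.55, against 2.69 and 1.91 (difference -2.78, SE 0.74, adjusted p = 0.0650).

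For 12 of the 38 genes the fitted difference stayed under 1 log2 unit in each comparison in which they were tested. They were Sema4c, Sema4g, Sema6a, Plxna1, Plxna2, Plxna3, Ntn1, Ntn3, Ephb2, Epha10, Efna3 and Unc5b. Epha10 was tested between tissue and glioma cells only. In a fit of all 9 arrays it was called higher in neural stem cells than in astrocytes. The fitted differences are those of the brightest probes. A weaker Efna3 probe, not well above background in glioma cells or neural stem cells, was at least 4.39-fold and 4.20-fold lower there than in astrocytes. A weaker Ntn1 probe had differences of -1.08 between glioma cells and astrocytes and 1.15 between tissue and glioma cells. Plxna1, a co-receptor of secreted semaphorins, had levels between -0.50 and 0.09 on all 9 arrays, and its largest difference in either direction was 0.33. Ephb2, an Eph receptor of transmembrane ephrins, had levels between -1.29 and -0.19, and Sema4c, a transmembrane semaphorin that binds Plxnb2, between 4.79 and 6.41. Sema4c lay lower on every tissue array than on either glioma cell array, a difference of -0.91 that did not pass (limma adjusted p = 0.0879). The range of these levels is a description of these arrays and is no test that the groups were equal.

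Replicate arrays lay far apart for some guidance genes. The 2 glioma cell arrays differed by over 2 log2 units for 15 of 64 members (23.4%), beside 5.58% of all genes tested. For astrocytes it was 9 members (14.1%, beside 5.07%), and for neural stem cells 10 (15.6%, beside 6.04%). In 4 of the 15 glioma cell cases and 1 of the 10 neural stem cell cases an array was not well above background. Among glioma cells the widest gaps were those of Robo1, Robo2 and Nrp2, all lower on array 1. Robo1 had -3.75 and 1.13 there, and Robo2 -5.93, not well above background, and -1.55. A second probe of Robo2 had -7.25, also not well above background, and -2.98, but another had -4.03 and -4.83, and a weaker probe of Robo1 had -4.48 and -7.03. These last 2 probes were lower on array 2, where neither was well above background. Nrp2 had -0.87 and 2.81, and its second probe -3.80 and -1.60. Among astrocytes, Sema5b was lower on array 2 by all 3 of its probes, such as 2.59 and -1.06 for the brightest, while Epha1 had -3.82 and 0.88 and Robo3 -4.75 and -0.88. None of the genes named here was called against astrocytes, but others with gaps over 2 were. Among the genes called there, the glioma cell arrays lay 3.29 apart for Slit3, 2.97 for Plxnb3, 2.48 for Epha2, 2.39 for Sema3g and 2.25 for Slit2. The astrocyte arrays lay 2.70 apart for Epha7 and 2.18 for Epha2, and the neural stem cell arrays 2.08 apart for Sema3b.

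Of the 68 genes, 24 had several probes. Where over 1 probe was measured, the probes gave differences of 1 sign for 16 of 19 genes between glioma cells and astrocytes. The counts were 15 of 17 against neural stem cells, 16 of 19 between neural stem cells and astrocytes, and 11 of 17 between tissue and glioma cells. The probes of the 2 cell comparisons with astrocytes therefore disagreed in 3 genes each, and those of tissue and glioma cells in 6. One of the 2 probes named Plxna2 lies on another chromosome than the other in the files, and Plxna2 was called in no comparison.

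Guidance genes outside these families, a list of 24 receptors and ligands and one of 43 intracellular effectors, were called about as often as all genes. Between glioma cells and astrocytes 3 of the 24 were higher and 2 lower, 20.8% beside 18.8% of all genes. Dscam, a cell adhesion receptor that also binds netrin, was 1292-fold higher (log2 difference 10.3, SE 1.23, limma adjusted p = 0.00770), and Cntn1, an axonal adhesion protein, 26.0-fold higher (adjusted p = 0.0497). Plxdc1, not well above background in glioma cells, was at least 28.5-fold lower there (limma adjusted p = 0.00593). It was not well above background in neural stem cells either, so among the cells it entered the test through astrocytes only. Plxdc2, a transmembrane protein with a plexin-like domain, was 13.2-fold lower (adjusted p = 0.00595). Of the 43 effectors 5 were higher and 3 lower (18.6%), among them Crmp1, a mediator of semaphorin signals, 16.7-fold higher (limma adjusted p = 0.0348), and Fyn, a kinase downstream of netrin and semaphorin receptors, 9.96-fold higher (adjusted p = 0.00715). Fes, a kinase that acts in semaphorin signalling, was 35.6-fold lower (limma adjusted p = 0.00553). No gene of either list was called between glioma cells and neural stem cells, where 2 and 6 had an unadjusted p under 0.05. Between neural stem cells and astrocytes 1 of the 24 was higher and 3 lower (16.7%), and 2 of the 43 were higher and 3 lower (11.6%), beside 14.6% of all genes. Between tissue and glioma cells it was 2 and 2 of the 24 (16.7%), and 4 and 2 of the 43 (14%), beside 16.9% of all genes. Plxdc1 was at least 17.7-fold higher in tissue (limma adjusted p = 0.00132). Lingo1, a Nogo receptor partner, was at least 4.84-fold lower in tissue (limma adjusted p = 0.00176), and Fes 16.3-fold higher (adjusted p = 0.00280).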

How the data were processed

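The 68 genes and the other lists were chosen with earlier results of these data known. Per the file headers, the deposited scanner files hold spot intensity on a linear scale, written by Agilent Feature Extraction 10.7.1.1 (cells) and 10.7.3.1 (tissue), with background subtraction and no scaling between arrays; the submitters' processing notes name 10.7.3.1. The authors' deposited table of log2 values matched the unscaled log2 processed signal and served as an alternative. Outlier spots were dropped and spots of a probe averaged. Probe positions are those of the files (mm9), and RefSeq names come from a GRCm38.p6 table. Levels are log2 processed signal minus the array's 75th percentile. Probes were tested where all arrays of some group were well above background, and the brightest tested probe stood for a gene. limma 3.58.1 (lmFit, eBayes) in R 4.3.3 was fitted to the 6 cell arrays (24868 genes, 3 residual degrees of freedom) or all 9 (25398 genes, 5), two-sided. Where no array of a group was well above background, the fold is a bound: the brighter group's mean against, per dim array, the higher of the probe's signal and the lowest signal well above background. The fit was tested on simulated data. Python 3.11.15 with pandas 2.3.3 and numpy 2.4.6 read the files, and matplotlib 3.10.9 drew the figures. Full statistics were given for called members, up to 8 a direction and 4 bounds, for the 3 smallest p where under 3 were called, and for up to 3 called genes of each other list and direction. Alternatives were other background corrections, scalings, filters, probe rules, fits and arrays left out.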

Additional observations from a re-analysis of the deposited data

How the results depend on the processing

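The 4 counts of called members stayed within 1.5 times their value in 39 of 42 recalculations that left out no array. The exceptions were the filter that asks for signal on every array and the fit of all 9 arrays, with 2 called between glioma cells and neural stem cells. That filter tests fewer genes and leaves out those near background in any group. It gave 12 of 50 tested members called between glioma cells and astrocytes, 4 higher and 8 lower. Between tissue and glioma cells it gave 5 of 49, 2 higher and 3 lower, beside 10 and 3 in the main fit. With 1 array left out, the counts ran from 5 to 16 for glioma cells against astrocytes, from 0 to 1 for glioma cells against neural stem cells, from 2 to 10 for neural stem cells against astrocytes and from 6 to 17 for tissue against glioma cells. The values without scaling moved the split of calls. Glioma cells against astrocytes then had 1 member higher and 14 lower, with 30.0% of all called genes higher, beside 47.8% with scaling, and the median of all genes at -0.29, beside 0.15. Neural stem cells against astrocytes had 3 higher and 6 lower (24.1%, beside 46.2%; median -0.19, beside 0.21), and tissue against glioma cells 16 higher and 0 lower (79.6%, beside 46.2%; median 0.38, beside -0.16). With the mean of the tested probes, Epha5 and Sema6d turned to 2.17 and 0.29 between tissue and glioma cells. Of the other values of single genes, 397 kept their sign and side of the threshold, 49 lost the call and 2 gained it, and the cause was not tested. The same-numbered samples that were checked did not deviate strongly together (correlations from -0.15 to 0.12). Most groups hold 2 arrays, so this cannot show whether the numbers pair samples, and the labels do not say. With the number as a replicate block, 17, 0, 10 and 9 members were called, in the order of the comparisons above. Normexp on mean signals was run among the cells only, as the tissue files used here lack that column; normexp on median signals, chosen after seeing the data, covered all arrays. Slide as a block could not be fitted, since each slide holds tissue or cells only. Signal over background limits genes such as Epha6, Epha7 and Robo3, which are bounds, and Ntn5 and Unc5d, not well above background on every array of any group.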
